A study of Mus musculus with 8 samples.

Results

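The replication-dependent histone genes were taken as every row of the deposited count table whose symbol begins with Hist1h, Hist2h, Hist3h or Hist4h, which gave 69 of 24469 rows. By class these are 6 rows for the linker histone H1, 19 for H2A, 19 for H2B, 12 for H3 and 13 for H4. By cluster, 55 belong to Hist1 on chromosome 13, 10 to Hist2 on chromosome 3, 3 to Hist3 on chromosome 11 and 1 to Hist4 on chromosome 6. The GENCODE M21 models of 2 of them, Hist1h2al and Hist3h2bb-ps, are processed pseudogenes.

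RNA of pancreatic islets picked by hand from mice aged 8 weeks was sequenced in 8 libraries, 1 per mouse. The wild-type group held 4 C57BL/6 mice. The knockout group held 4 mice of the same background that lack the Rpl13a snoRNAs U32a, U33, U34 and U35a, box C/D RNAs whose sequences lie in Rpl13a introns and which guide 2'-O-methylation of other RNAs. The labels name no promoter or cell type to which the loss is limited, and the comparison asks how islet RNA differs between mice with and without these snoRNAs.

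Replication-dependent histones package newly made DNA, and their genes are transcribed mainly in S phase. Their transcripts have no introns and, in place of a poly(A) tail, mostly end just after a short stem-loop that is bound by the protein SLBP and trimmed with help of the U7 snRNP. In cells that have left the cell cycle a part of these genes can also give longer, polyadenylated transcripts, so in a largely non-dividing tissue such as the islet their detection depends on how RNA was selected. Per the labels the molecule is total RNA, and no source used here says whether poly(A) RNA was selected.

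The stem-loops below are the 3'-end element that sets this family apart, shown for the members on which the results turn. They were read from GENCODE M21 models (GRCm38), where all 69 members were found by symbol. Capitals mark the 16-base stem-loop, made of 6-base arms around a 4-base loop, with 5 flanking bases on each side.

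Hist1h4d: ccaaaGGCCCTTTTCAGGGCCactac
Hist1h4c: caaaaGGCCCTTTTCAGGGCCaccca
Hist1h4f: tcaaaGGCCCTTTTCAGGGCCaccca
Hist1h4h: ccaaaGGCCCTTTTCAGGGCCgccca
Hist2h4: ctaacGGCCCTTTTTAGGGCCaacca
Hist1h4a: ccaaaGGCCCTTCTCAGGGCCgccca
Hist1h4b: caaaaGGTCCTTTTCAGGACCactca
Hist2h2aa1: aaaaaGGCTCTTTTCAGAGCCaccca
Hist2h3c2: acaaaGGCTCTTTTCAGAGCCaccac

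A stem-loop with paired arms was found on the transcribed strand in the models of 45 of 69 members (65.2%) and of 52 of all 55341 genes (0.094%). The other 24 members had models without it, and a match or its absence describes only these annotated letters. By the last stem-loop of each model, the form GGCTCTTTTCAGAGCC stood in 25 members of H1, H2A, H2B and H3 and in no H4 member, and 29 of all genes (0.0524%) hold these letters. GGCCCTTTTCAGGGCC stood in 7 members, all of class H4, and in no other gene (0.0126% of all), and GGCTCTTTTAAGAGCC in 6 members. In 22 models the transcript ended within 100 bases of the stem-loop, and in 23 it ran on further.

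Promoter sequences from RefSeq (GRCm38.p6) were matched for 61 members, and the 250 bases before the annotated start are printed. The first printed here belongs to Hist1h4d, the H4 row with the smallest p between the genotypes, and the second to Hist1h2ab, an H2A row with few counts in the knockout. Capitals mark the CCAAT box (or its reverse, ATTGG), the TATA box (TATAAA) and the octamer (ATTTGCAT or its reverse). Distances count from the motif's first printed base to the start.

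Hist1h4d promoter, chr13:23581318-23581567, plus strand: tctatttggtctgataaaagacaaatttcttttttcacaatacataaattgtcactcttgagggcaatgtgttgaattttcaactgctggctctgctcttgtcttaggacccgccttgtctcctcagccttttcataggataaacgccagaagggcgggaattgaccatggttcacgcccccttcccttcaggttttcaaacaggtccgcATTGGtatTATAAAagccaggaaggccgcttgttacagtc
Hist1h2ab promoter, chr13:23750838-23751087, plus strand: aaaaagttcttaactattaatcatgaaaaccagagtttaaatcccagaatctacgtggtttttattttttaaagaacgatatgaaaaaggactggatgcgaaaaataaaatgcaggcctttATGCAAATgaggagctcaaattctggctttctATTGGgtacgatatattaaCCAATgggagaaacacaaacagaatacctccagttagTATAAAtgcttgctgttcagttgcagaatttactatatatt

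In Hist1h4d the CCAAT box stood 40 and the TATA box 32 bases before the start. In Hist1h2ab the octamer stood 129, the CCAAT boxes 78 and 97, and the TATA box 41 bases before it. Motifs were counted on both strands in windows of 300 bases, from 250 before to 50 after the start, for members and all promoters alike, so a count can include a match past the printed bases. The octamer occurred in 7 of 17 H2A and 7 of 16 H2B promoters and in none of the 6 H1, 10 H3 and 12 H4 promoters, against 1.74% of all 32851 promoters. CCAAT occurred in 52 of 61 member promoters, but in 3 of 12 of H4, against 37.4% of all. TATAAA occurred in 35 of 61, and in 8 of 12 of H4, against 13.6%. These counts take the letters at any place in the window. Among H4 promoters they stood 32 bases before the start in Hist1h4d and 16 in Hist1h4k. In Hist1h4n, Hist1h4m, Hist1h4i and Hist1h4f they stood 127, 128, 137 and 250 bases before it.

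Each library held between 21235196 and 41148318 assigned counts, of which the ribosomal RNA precursor Rn45s took 36.7 to 41.3%. Snord32a had 5, 1, 1 and 2 counts in wild type and Snord33 had 2, 0, 4 and 0, both had 0 in every knockout library, and Snord34 and Snord35a had 0 in all 8, so these short RNAs check the labels only weakly. Islet hormone and endocrine genes summed to between 113000 and 191000 CPM in each library (counts per 1e+06, over library sizes scaled by the TMM method, which sets libraries to a common level for most genes). Digestive enzyme genes of acinar cells, the exocrine cells around the islet, held a share of 24, 1.87, 13.1 and 4.67% in the wild types, in the order of their replicate numbers, and of 20, 4.83, 25.6 and 16.4% in the knockouts. Xist exceeded 1000 counts in wild-type replicate 4 and knockout replicates 1 and 4, so libraries of both kinds stand in each genotype. In bulk tissue, fewer cells that express a gene and less of its RNA per cell cannot be told apart.

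Histone RNA was detected in every library at a low level. Together the 69 rows received 9481, 10480, 10626 and 11219 counts in the wild types (replicate order 1 to 4, as in all lists of values here), and 4944, 7768, 6176 and 7686 in the knockouts. Per 1e+06 assigned counts these are 230, 422, 361 and 385 in wild type and 233, 333, 191 and 274 in knockout. On that scale, which takes no account of how much of a library its most abundant genes hold, the genotypes overlapped, because wild-type replicate 1 lay within the knockout range.

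At least 1 count was seen in all 8 libraries for 48 members (69.6%, against 61.0% of all genes), in some libraries for 20, and in none for Hist1h2ah. With a limit of 10 counts in every library, 31 members were left. Hist1h2ah, an H2A gene, shares 87.4% of its 50-base words with Hist1h2ad, and a count of 0 allows up to 3 counts per library. The filter on low counts kept 44 members (63.8%, against 55.7% of all genes): 12 of 13 for H4, 9 of 12 for H3, 5 of 6 for H1, 11 of 19 for H2B and 7 of 19 for H2A. The 25 rows below the filter had between 0 and 70 counts over all libraries and together held 0.933% of the members' counts. Of these rows 12 were H2A, 8 were H2B and 3 were H3.

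**Figure D1:**
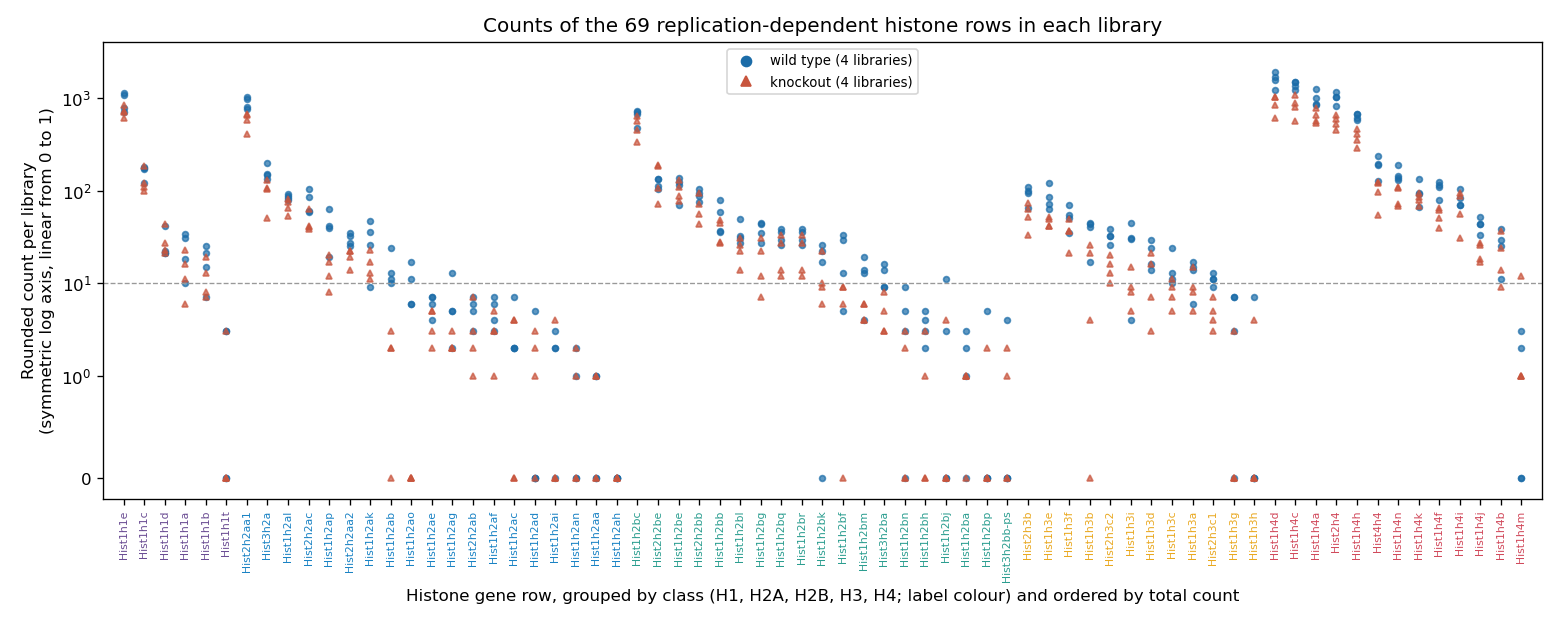
Rounded counts of each of the 69 histone rows (x axis, grouped by class) in the 4 wild-type (circles) and 4 knockout (triangles) libraries, on a symmetric log y axis that is linear from 0 to 1; the dashed line is at 10 counts. Most H4 rows lie above the line in every library, whereas 12 of 19 H2A rows did not pass the filter.

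Near-identical coding sequences limit what a single row means. Of the members' values, 76.6% were not whole within 0.01, against 11.3% of all values in the table. Fractional values arise when a counting program divides a read among genes. All 8 values were fractional for 34 members. Hist1h2bq and Hist1h2br held equal values in each library, Hist2h2aa1 stood at 30.09 times Hist2h2aa2, and Hist2h3c1 at 0.3264 times Hist2h3c2, ratios that were constant across libraries to within a coefficient of variation of 0.1%. These 3 pairs are therefore not independent measurements. Of the 50-base words of a model, 99.0% were unique to Hist2h4, 89.8% to Hist1h4d, 80.4% to Hist1h4c, 60.5% to Hist1h4f and 54.2% to Hist1h4h among the genes of the table, but 14.4% to Hist1h4n and 10.8% to Hist2h2aa1.

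The levels that follow are TMM-scaled CPM. Per kilobase of transcript, the row with the highest mean over the 8 libraries was Hist1h4a with 52.9 CPM per kb, followed by Hist1h4c (46.7), Hist2h2aa1 (43.4), Hist1h4d (37.1) and Hist1h4h (37.1). Hist1h2bc had 17.2 CPM per kb, Hist2h4 16.5, Hist1h1e 15.2, Hist1h4k 10.2 and Hist1h4n 9.58. Of these 10 rows, 7 encode H4, the histone that forms the core tetramer with H3. Using coding length in place of transcript length left 9 of the 10 in the top 10. At the other end, 30 of the 44 rows kept had under 5 CPM per kb, and the lowest, Hist1h1d, had 0.133 over a model of 7425 bases. The 5 H4 rows Hist1h4d, Hist1h4c, Hist1h4a, Hist2h4 and Hist1h4h held 88.7% of all H4 counts. H4 rows made up 53.2 to 64.5% of the members' summed CPM in a library.

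Summed over all 69 rows, replication-dependent histone RNA was at 309, 316, 367 and 314 CPM in wild type and 291, 253, 273 and 247 in knockout. Every knockout library lay below every wild-type library, and wild-type replicate 3 was the highest. The means were 327 ± 27.2 and 266 ± 19.9 CPM (SD, n = 4 each), a log2 ratio of -0.30. Without wild-type replicate 3 the log2 ratio was -0.25. No p is given for this sum, since the genes were chosen with results known. With library size alone as the scale the log2 ratio was -0.43, and with the authors' RPM it was -0.45. On the RPM scale, however, the genotypes overlapped, with 140 in wild-type replicate 1 and 175 in knockout replicate 2.

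The sums of H4, H3 and H2A were lower in every knockout library than in any wild type, while those of H2B and H1 overlapped. H4 summed to 173, 185, 237 and 194 CPM in wild type and to 162, 147, 154 and 131 in knockout, a log2 ratio of -0.41 with no overlap. H3 summed to 11, 10.5, 15.4 and 12 against 9.82, 8.25, 7.77 and 7.74, a log2 ratio of -0.54, also without overlap. For H2A, the partner of H2B in the outer dimers of the nucleosome, the sums were 40.5, 42.0, 43.3 and 44.2 against 36.3, 31.6, 37.9 and 32.2, a log2 ratio of -0.30 without overlap.

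H2B summed to 38.4 ± 0.96 CPM in wild type and to 37.6 ± 1.64 in knockout (SD, n = 4 each), a log2 ratio of -0.03, and the genotypes overlapped. H1, which binds the linker DNA between nucleosomes, ranged from 26.6 to 45.1 CPM in wild type and from 29.2 to 45.6 in knockout, a log2 ratio of 0.03. Whether the classes differ from each other in their change was not tested.

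**Figure D2:**
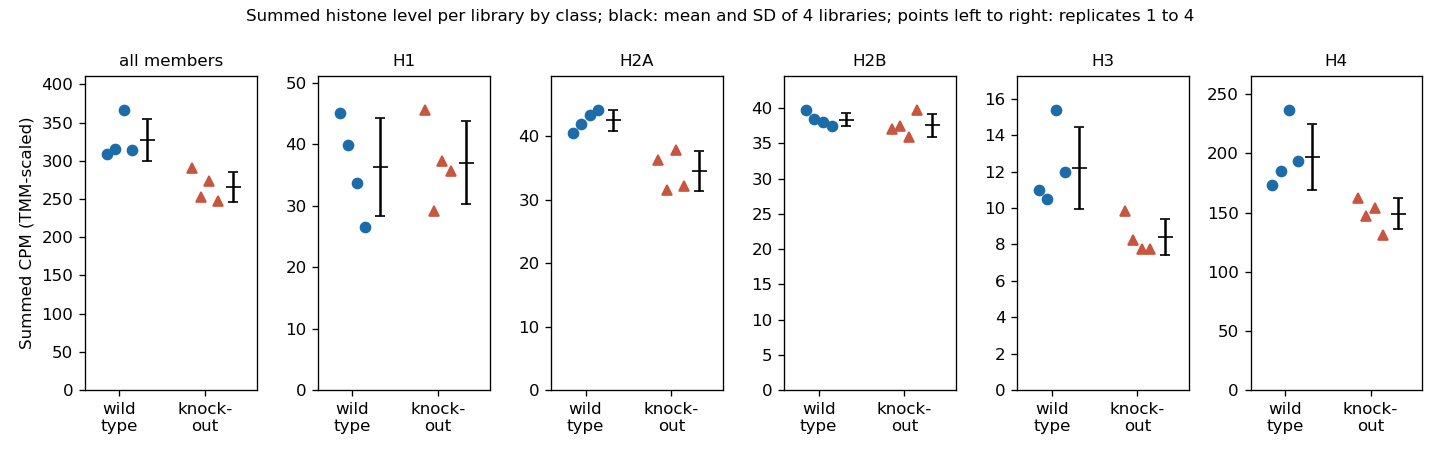
Summed TMM-scaled CPM (y axes, starting at 0) per library for all members and each histone class in wild type (circles) and knockout (triangles), with mean and SD of 4 libraries in black. All members, H2A, H3 and H4 show no overlap between genotypes, whereas H1 and H2B do.

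Row by row, 0 of 44 tested members passed the 0.05 threshold on p adjusted over all genes, in the quasi-likelihood test of edgeR for knockout against wild type (2 of all 13617 genes tested, 0.0147%). At an unadjusted p under 0.05, 12 members were lower (27.3%, against 10.3% of all genes) and 1 was higher (2.27%, against 8.42%). The libraries of the genotypes did not overlap, with the knockout lower, for 9 members (20.5%, against 4.66%), and in no member with the knockout higher (against 3.68%). A negative log2 fold change was seen for 35 of 44 members (79.5%, against 48.7%), and the median was -0.32 against 0.01 for all genes. Several of these rows share reads, so the members are not independent of each other. Hist2h2aa1 and Hist2h2aa2, which stand in a constant ratio, are both among the 9 rows without overlap. Hist1h2bq and Hist1h2br, which held equal values, are both among the 35 negative rows. With library size alone as the scale the median of all genes was -0.111, 41 of 44 members were negative and their median was -0.45, which is -0.34 relative to all genes. On the authors' RPM, where low values are compressed by a pseudocount of 1, 40 of 44 were negative and their median was -0.15 against -0.088 for all genes, a difference of -0.07.

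Calls at an adjusted p of 0.05 depended on the method and on 1 library. With DESeq2, 3 of the 20 members to which it gave an adjusted p passed (Hist1h4c, Hist1h4d and Hist2h4, all lower), against 5.34% of all genes so adjusted, 3.34% in the lower direction. With limma-voom none passed, and 12 of 44 members had an unadjusted p under 0.05, a cut for which the share of all genes in that fit was not taken. Without wild-type replicate 1, which has the largest acinar share of the wild types, 7 of 46 members passed in edgeR (15.2%, against 9.46% of all genes and 6.08% in the lower direction): Hist1h2ab, Hist1h3i, Hist1h4c, Hist1h4d, Hist1h4f, Hist2h4 and Hist4h4, all lower. Hist1h2ab did not reach the test with all libraries and the filter. It was tested with no filter, where 0 members passed. In the fit without wild-type replicate 1, its wild-type counts carried it past the filter. Of the 44 members also tested with all libraries and the filter, 6 passed there (13.6%). Of all genes, 1313 passed in that fit, against 2 with all libraries. Leaving out any other single library gave 0 members. Without wild-type replicate 1, 16 of 46 members did not overlap and were lower in the knockout, against 14.6% of all genes, and without any other single library 9 to 12 did, against 5.35 to 9.18% of all genes. A fit that holds the acinar share as a covariate had a member median of -0.34, 38 of 44 members negative and none past the threshold.

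**Figure D3:**
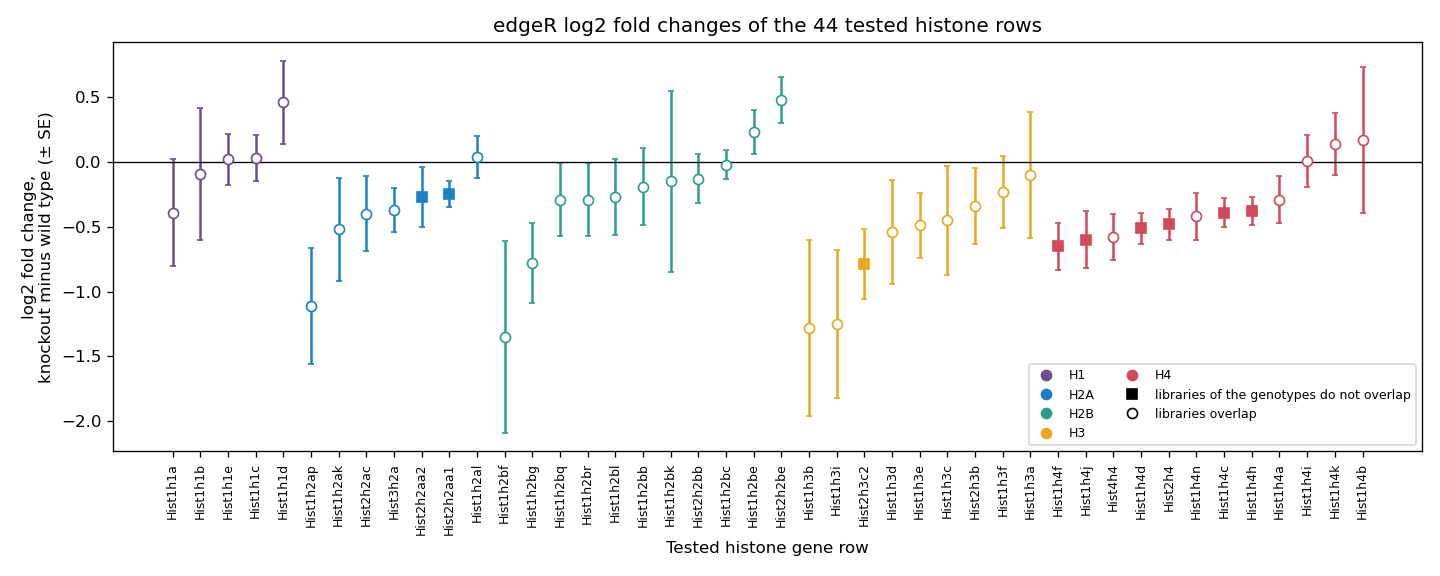
edgeR log2 fold changes (knockout minus wild type, y axis) with standard errors for the 44 tested histone rows, grouped and coloured by class; filled squares mark rows whose libraries do not overlap between genotypes. All 9 H3 rows and 9 of 12 H4 rows are below 0, and none of the 44 passed an adjusted p of 0.05.

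Wild-type replicate 3 had the highest of the 8 values for 7 of the 12 tested H4 rows and 4 of the 9 H3 rows. In class H4, 9 of 12 tested rows had a negative log2 fold change (12 with library size alone as the scale), and the median was -0.41. Of the 12, 8 rows had an unadjusted p under 0.05, all lower, and 6 of them did not overlap between the genotypes. Over all genes tested, 10.3% were lower at that cut and 4.66% were lower without overlap. The same shares stand beside the counts for the other classes below. Hist1h4d, the H4 row with the most counts, had 40.1, 46.9, 58.2 and 53.5 CPM in wild type and 35.9, 33.5, 37.1 and 32.8 in knockout. Every knockout library lay below the lowest wild type, with a log2 fold change of -0.51 ± 0.12 (± SE throughout; edgeR adjusted p = 0.120). This row has a model that is mostly unique, as does Hist2h4 of the chromosome 3 cluster, but both had fractional values. These were seen in 8 libraries for Hist1h4d and in 7 for Hist2h4, so some of their reads were divided. Of the Hist1h4d model, 770 of 1138 bases lie past the stem-loop, and of the Hist2h4 model 1257 of 1630. The unique share of a transcript that ends at the stem-loop was not measured. Hist2h4 had 26.6, 30.6, 35.6 and 32.5 CPM in wild type and 26.3, 21.2, 23.1 and 19.1 in knockout. Its genotypes were apart only narrowly, with knockout replicate 1 just below wild-type replicate 1, and the log2 fold change was -0.48 ± 0.12 (edgeR adjusted p = 0.142).

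Hist1h4c had 40.3, 40.8, 51.1 and 41.6 CPM in wild type and 33.4, 35.3, 35.1 and 28.5 in knockout. The groups were apart, with wild-type replicate 3 well above the other wild types, and the log2 fold change was -0.39 ± 0.11 (edgeR adjusted p = 0.149). The same library was highest for Hist1h4h, with 18.9, 18.2, 23.0 and 18.7 CPM in wild type against 17.1, 14.9, 15.5 and 13.1, without overlap, and a log2 fold change of -0.38 ± 0.11 (edgeR adjusted p = 0.158). Hist1h4f, at a lower level, had 2.61, 3.31, 4.25 and 3.25 CPM against 2.29, 1.99, 2.25 and 2.06, again without overlap, with a log2 fold change of -0.65 ± 0.18 (edgeR adjusted p = 0.150).

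Other H4 rows were less regular. Hist1h4a, the row with the highest level per kilobase, had 28.5, 25.3, 43.1 and 28.3 CPM in wild type and 31.5, 25.5, 24.9 and 21 in knockout. Its genotypes overlapped, and only wild-type replicate 3 stood above all knockouts (log2 fold change -0.29 ± 0.18, edgeR adjusted p = 0.387). Hist1h4n had 4.72 ± 1.21 CPM in wild type and 3.52 ± 0.358 in knockout (SD, n = 4 each), with overlap and a log2 fold change of -0.42 ± 0.18. Hist1h4k had 3.03, 4.03, 3.14 and 1.85 CPM against 4.00, 2.58, 3.75 and 2.99, and Hist1h4b 0.359, 0.753, 1.31 and 0.812 against 1.41, 0.293, 1.63 and 0.45. Both overlapped, their log2 fold changes were 0.14 ± 0.24 and 0.17 ± 0.56, and their signs turned under other settings.

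Chosen after their values were seen, Hist4h4 and Hist1h4j add an H4 gene outside the large clusters and one of low level. Hist4h4, the single member on chromosome 6, had 4.14, 7.04, 6.53 and 5.46 CPM in wild type and 3.24, 3.95, 4.28 and 4.02 in knockout. Wild-type replicate 1 lay below the highest knockout, so the groups overlapped, and the log2 fold change was -0.58 ± 0.18 (edgeR adjusted p = 0.164). Without wild-type replicate 1 it was -0.72 with an adjusted p of 0.0196. Hist1h4j had 1.33 ± 0.194 CPM against 0.878 ± 0.0871 (SD, n = 4 each), without overlap and with a log2 fold change of -0.60 ± 0.22.

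**Figure D4:**
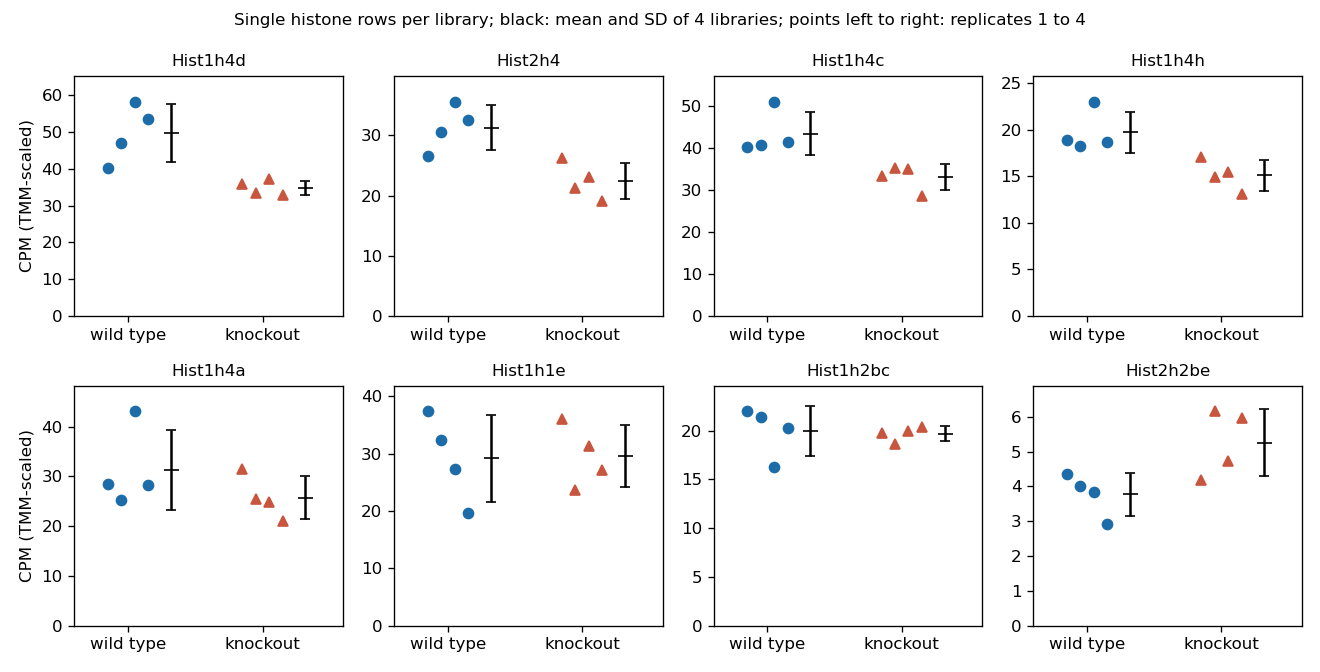
TMM-scaled CPM (y axes, starting at 0) of 8 histone rows in each library, wild type as circles and knockout as triangles, with mean and SD of 4 libraries in black. Hist1h4d, Hist2h4, Hist1h4c and Hist1h4h are lower in every knockout library, whereas Hist1h4a, Hist1h1e, Hist1h2bc and Hist2h2be overlap.

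H3 rows had low counts, and all 9 tested had a negative log2 fold change, from -1.28 to -0.10 with a median of -0.49. One had an unadjusted p under 0.05. It was Hist2h3c2, chosen after its values were seen, with 1.24, 0.963, 1.11 and 0.728 CPM in wild type and 0.588, 0.652, 0.574 and 0.514 in knockout. The groups did not overlap, and the log2 fold change was -0.79 ± 0.27 (edgeR adjusted p = 0.189), although its reads are split with Hist2h3c1. Hist1h3i, also chosen after its values were seen, had 0.130, 0.903, 1.56 and 0.868 CPM against 0.294, 0.489, 0.353 and 0.289. Wild-type replicate 1 was the lowest of all libraries, and leaving it out moved the log2 fold change from -1.25 ± 0.57 to -1.61 (edgeR adjusted p = 0.024).

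Among H2A rows, 6 of 7 tested were negative, with a median of -0.37, and 2 had an unadjusted p under 0.05. Hist2h2aa1, which held most H2A counts, had 26.3, 29.2, 26.1 and 29.1 CPM in wild type and 24.1, 21.7, 25.8 and 21.3 in knockout. Its groups were apart, narrowly, and the log2 fold change was -0.25 ± 0.10 (edgeR adjusted p = 0.211). Hist1h2ap, chosen after its values were seen, had 0.620, 1.23, 2.18 and 1.09 CPM against 1.00, 0.652, 0.53 and 0.257, with overlap and a log2 fold change of -1.11 ± 0.45. Hist3h2a of chromosome 11, also chosen after its values were seen, had 4.93 ± 0.642 CPM against 3.8 ± 0.754 (SD, n = 4 each), with overlap (log2 fold change -0.37 ± 0.17).

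A pair of H2A rows below the filter showed few or no counts in the knockout and were chosen for that. Hist1h2ab had 10, 13, 24 and 11 counts in wild type and 2, 3, 0 and 2 in knockout. It shares 58.0% of its words with Hist1h2ai, and its values were fractional in 6 libraries, so some of its reads were divided. Hist1h2ao had 6, 11, 6 and 17 counts in wild type and 0 in each knockout library. Hist1h2ao shares 93.5% of its words with Hist1h2ap, so that a read of one can be given to the other. The 2 rows together had 25, 52, 69 and 56 counts in wild type and 17, 20, 12 and 8 in knockout, in libraries of unequal depth. As CPM they had 0.815, 1.57, 2.38 and 1.57 against 1.00, 0.652, 0.53 and 0.257, so the genotypes overlapped, with wild-type replicate 1 below knockout replicate 1.

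In class H2B, 9 of 11 tested rows were negative with a median of -0.19, and Hist1h2bg, chosen after its values were seen, was the single row lower at an unadjusted p under 0.05 (log2 fold change -0.78 ± 0.31, edgeR adjusted p = 0.229, with overlap). Hist1h2bc held the most H2B counts. It had 22.0, 21.4, 16.3 and 20.3 CPM in wild type and 19.8, 18.6, 20.0 and 20.4 in knockout, with full overlap and a log2 fold change of -0.02 ± 0.11 (edgeR adjusted p = 0.915). Hist2h2be was the single member higher at an unadjusted p under 0.05. It had 4.37, 4.00, 3.84 and 2.91 CPM in wild type and 4.18, 6.16, 4.73 and 5.98 in knockout, and knockout replicate 1 lay below wild-type replicate 1, so the groups overlapped (0.48 ± 0.18 on the log2 scale, edgeR adjusted p = 0.198). Its model, without a stem-loop, is unique in all its words, but its values were fractional in 3 libraries. Hist1h2be had 3.75, 3.73, 2.42 and 3.81 CPM against 4.53, 3.59, 3.84 and 4.21, with overlap and a log2 fold change of 0.23 ± 0.17. Leaving out wild-type replicate 3, in which 7 of the 11 rows had their highest value, moved the H2B median to -0.01, and leaving out wild-type replicate 1 moved it to -0.35.

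H1 rows showed no common direction, with 2 of 5 tested negative and none with an unadjusted p under 0.05. Hist1h1e, which held most H1 counts, had 37.4, 32.4, 27.3 and 19.7 CPM in wild type and 36.1, 23.6, 31.4 and 27.2 in knockout. The spread within wild type exceeded the difference between the means (log2 fold change 0.02 ± 0.20), and its model shares 23.8% of its words with Hist1h2be. Hist1h1c had 5.03 ± 0.681 CPM against 5.16 ± 1.20 (SD, n = 4 each; log2 fold change 0.03 ± 0.18). Hist1h1d had 1.34, 0.632, 0.760 and 0.588 CPM against 1.35, 0.880, 0.928 and 1.41, with a log2 fold change of 0.46 ± 0.32. Hist1h1a and Hist1h1b stayed near or below 1 CPM, with log2 fold changes of -0.39 ± 0.41 and -0.09 ± 0.51.

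The members were also grouped by the annotated end of their transcript. This sorts the same rows again, so its sums are not independent of the sums by class. Hist1h4d, Hist1h4c, Hist1h4a and Hist2h4, with wild-type means of 49.7, 43.5, 31.3 and 31.3 CPM, all have models that run on past 100 bases. Hist2h2aa1, with 27.7 CPM, has a model that ends within 100 bases. The 22 members whose model ends within 100 bases of the stem-loop summed to 67.4 ± 6.23 CPM in wild type and 52.2 ± 4.74 in knockout (SD, n = 4 each), a log2 ratio of -0.37 without overlap. The 23 members whose model runs on summed to 217 ± 20.8 and 173 ± 14.5, a log2 ratio of -0.33, also without overlap. The 24 members with no stem-loop in the model summed to 42.1 ± 1.90 and 41.1 ± 1.55, a log2 ratio of -0.04 with overlap. Hist1h2bc alone held 20.0 and 19.7 CPM of these sums. Of the 13 tested rows in this group, 10 were negative and 3 positive. Some of these models hardly pass the coding sequence, such as Hist1h4k with 309 coding bases of 312, so the group also reflects how far the annotation reaches. The median log2 fold changes of the tested rows were -0.39, -0.39 and -0.27 in this order, and the third was -0.12 without wild-type replicate 3. Whether the 3 kinds differ was not tested, and the counts do not show which end a transcript had.

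Genes that make, use or destroy histone RNA were listed apart from the members, and none of their tested genes passed an adjusted p of 0.05 in edgeR, with 15 of 89 at an unadjusted p under 0.05 (16.9%, near the 18.7% of all genes), so the counts by list that follow are a description only. DESeq2 called E2f1 alone among them, limma-voom none, and edgeR without wild-type replicate 1 called E2f1, Cabin1, H2afz and the processing gene Sympk. The transcripts of replication-independent histones are mostly polyadenylated and made throughout the cell cycle. Of 10 tested, 1 was lower and 1 higher at an unadjusted p under 0.05, and the median was 0.05. H2afz, the variant H2A.Z, had 45.8, 29.9, 36.9 and 32 CPM in wild type and 40.4, 47.4, 53.5 and 53.2 in knockout, with overlap (log2 fold change 0.43 ± 0.14, edgeR adjusted p = 0.178; 0.55 with an adjusted p of 0.0244 without wild-type replicate 1). H1fx, a linker histone variant, had 3.64 ± 0.987 CPM against 2.37 ± 0.404, and H3f3a, which encodes H3.3, had 36.4 ± 4.59 against 44.3 ± 7.58 (SD, n = 4 each), both with overlap.

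Of 20 tested genes for histone RNA synthesis and 3'-end processing, 2 were lower and 4 higher at an unadjusted p under 0.05, with a median of 0.05. Slbp, which encodes the stem-loop binding protein, had 4.88 ± 1.07 CPM in wild type and 5.04 ± 0.239 in knockout (SD, n = 4 each; log2 fold change 0.05 ± 0.16). Snrpe and Snrpg, which encode Sm ring proteins, had log2 fold changes of 0.37 ± 0.13 and 0.35 ± 0.14, and Cpsf1, which encodes a cleavage complex subunit, -0.32 ± 0.13. The others counted were Cstf2 (0.25 ± 0.10), Snrpd3 (0.28 ± 0.12) and Fip1l1 (-0.24 ± 0.10), which are named for their p. Of 15 tested genes of RNA decay, 2 were higher and none lower, with a median of 0.05. Dcp2, the decapping enzyme, had 7.37, 8.37, 8.02 and 8.74 CPM in wild type and 11.2, 9.81, 10.9 and 9.61 in knockout, without overlap (log2 fold change 0.35 ± 0.11, edgeR adjusted p = 0.164). Lsm3, part of the Lsm ring of decay, and the exonuclease gene Dis3l2 had log2 fold changes of 0.46 ± 0.19 and -0.24 ± 0.14. Of 17 histone chaperone genes, 2 were lower and 2 higher, with a median of -0.05. Asf1a, Nap1l1 and Cabin1 had log2 fold changes of 0.48 ± 0.20, 0.25 ± 0.10 and -0.35 ± 0.13. Asf1b, the other one lower and named for its p, had -0.79 ± 0.34, and Cabin1 passed without wild-type replicate 1 (-0.44, edgeR adjusted p = 0.0427).

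S phase genes were measured because these histones are made mainly while DNA is copied. Of 27 tested genes, 1 was lower and none higher at an unadjusted p under 0.05, and the median was -0.04. Their summed level was 76.0, 70.9, 109 and 88.3 CPM in the wild types against 82.8, 78.9, 73.0 and 79.4 in the knockouts, so the genotypes overlapped and wild-type replicate 3, the library with the most histone RNA, was also highest here. Mki67, a marker of cycling cells, had 16.7, 14.4, 28.2 and 20.7 CPM against 20.9, 14.2, 13.4 and 18.2 (log2 fold change -0.26 ± 0.22), and Pcna, the sliding clamp of replication, had 9.73 ± 2.78 against 9.43 ± 0.754 (SD, n = 4 each; -0.04 ± 0.18). E2f1, a transcription factor of the G1 to S transition, was the gene at an unadjusted p under 0.05. It had 5.35, 5.30, 7.40 and 6.89 CPM in wild type and 3.47, 4.50, 4.42 and 4.08 in knockout, without overlap (log2 fold change -0.59 ± 0.16, edgeR adjusted p = 0.144; 0.0361 with DESeq2). Cdc45 and Ccne1 had log2 fold changes of -0.40 ± 0.23 and -0.42 ± 0.25, both with overlap. The part of cycling cells in the histone result was not tested.

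Markers of the cells that islet preparations hold were measured beside the histones. Each of the 19 acinar genes tested had a log2 fold change above 0, the median being 0.50, but their sum overlapped between the genotypes, from 14000 to 322000 CPM in wild type and from 36700 to 366000 in knockout. Islet endocrine genes summed to 140000, 186000, 191000 and 178000 CPM in wild type and 116000, 130000, 140000 and 113000 in knockout, with the lowest wild type and the highest knockout at the same rounded value. Of the 17, 13 were negative, with a median of -0.17, and none passed in edgeR or limma-voom. At an unadjusted p under 0.05 in edgeR, 7 were lower, against 10.3% of all genes. DESeq2 called those 7, all lower (Ucn3, Pdx1, Chga, Mafa, Ins2, Nkx6-1 and Ins1), and edgeR without wild-type replicate 1 called 6 of them. Of all genes, these 2 fits called 3.34% and 6.08% lower. The direction of the endocrine genes was that of the histone members, and its part in the histone result was not tested. Endothelial markers had a median of -0.19 over 10 genes and summed to 190 to 263 CPM in wild type and 181 to 235 in knockout. The immune list holds 2 haemoglobin genes of red blood cells, Hba-a1 and Hbb-b1, which summed to 17.6 to 193 CPM in wild type and 31.8 to 243 in knockout, highest in replicate 4 of each genotype. The other 15 genes of that list summed to 47.1, 75.1, 69.8 and 63.7 CPM against 60.2, 53.7, 40.6 and 59.3, with overlap. Duct markers had a median of -0.04 over 10 genes, with 153 to 166 CPM in wild type and 132 to 175 in knockout. Stellate and mesenchymal markers had a median of 0.64 over 9 genes, with 159 to 191 CPM and 160 to 328. In edgeR no acinar, duct, endothelial, immune or mesenchymal gene passed an adjusted p of 0.05, and 6 of 62 had an unadjusted p under 0.05 (9.68%, against 18.7% of all genes). DESeq2 called the duct marker Spp1 and the mesenchymal marker Dcn (against 5.34% of all genes), and limma-voom called none. Without wild-type replicate 1, edgeR called 5 (against 9.46% of all genes). Whether cells of these kinds bear on the histone values was examined only for acinar cells, through the covariate, and otherwise was not tested.

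**Figure D5:**
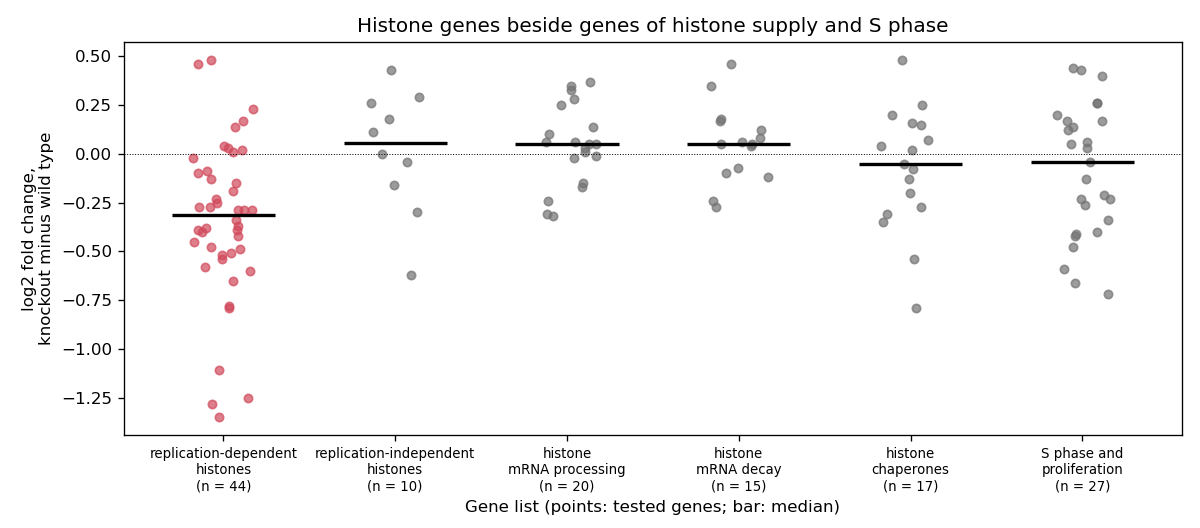
edgeR log2 fold changes (knockout minus wild type, y axis) of the tested genes of 6 lists, one point per gene and a bar at the median. The median was -0.32 for the 44 replication-dependent histones and lay between -0.05 and 0.05 for the other 5 lists.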

How the data were processed

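Per the labels' protocols, DNase-treated total RNA of hand-picked islets was made into SeqPlex libraries. Per the submitters' processing notes, STAR 2.4.1, Partek and the build mm9 were used, while no source used here gives their roles, the annotation, the strand or poly(A) selection. The authors deposited estimated counts per gene, not all whole, and RPM values, which are reads scaled to a total of 1e+06. Counts were rounded and tested with edgeR 4.0.16 in R 4.3.3, with filterByExpr by genotype (minimum count 10) and TMM. A robust quasi-likelihood F-test was used, and p was adjusted over all 13617 genes kept (Benjamini-Hochberg). The same test was also run on counts simulated from these data, and the outcome is not reported here. CPM divides a count by the TMM-scaled library size, and between 21235196 and 41148318 counts per library set the precision. Limits of 0 counts cover counting error only, while the SD and SE values also hold the spread between libraries. The alternatives used DESeq2 1.42.0, limma 3.58.1, other scalings and filters, covariates, the replicate block and each library left out, and 3 further ones were chosen after seeing the data (1 row of each pair in a constant ratio, medians by class and by transcript end, coding length).

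The genes and lists were chosen with earlier results of these data known. Members named are the 5 lower and 5 higher of smallest p, the 10 of highest level per kilobase and all tested H1 rows. From each other list of histone supply, the 3 of smallest p are named, with Slbp, Mki67 and Pcna. Lengths, stem-loops and shared words come from GENCODE M21 transcripts, and only the promoters carry GRCm38.p6 coordinates, since the files use mm9.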

Additional observations from a re-analysis of the deposited data

Results flagged for a closer look

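In 4 of 48 groups of 4 libraries checked, 1 library lay far from the other 3 by Dixon's test at the 95% level, which chance gives in about 1 in 20 groups. All 4 were wild-type replicate 3. The summed level of all members was 367 CPM there, against 309 to 316 in the other wild types. Hist1h4c had 51.1 CPM against 40.3 to 41.6, and Hist1h4h had 23.0 against 18.2 to 18.9. Hist1h2be lay on the other side, with 2.42 CPM against 3.73 to 3.81. The library also had the highest summed level of S phase genes, 109 CPM, and the part of this in the histone values was not tested.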

How the results depend on the processing

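Of 18 members named by the rule, 12 kept the sign of their log2 fold change under all 20 alternatives, among them Hist1h4d (-0.67 to -0.44), Hist2h4 (-0.65 to -0.41) and Hist1h4c (-0.52 to -0.32). DESeq2 gave 3 members past the threshold and 525 genes in all, against 0 and 2 in edgeR, and leaving out 1 library gave 0 to 7 members. Library size alone gave 8 members at an unadjusted p under 0.05, against 13 with TMM, and 48 genes past the threshold. The share of all genes at that unadjusted cut was taken only for the main fit, so the count of 8 is a description only. No filter gave 3 genes, the acinar covariate 3 and leaving out knockout replicate 4 gave 5. The median of the members was -0.45 with library size alone, -0.15 with limma-trend on RPM and -0.41 to -0.27 when 1 library was left out. The log2 ratio of the sum was -0.43 with library size alone, -0.45 with RPM and -0.35 to -0.25 when 1 library was left out. With the limit of 10 counts 31 members were detected in place of 48.

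Signs turned for 6 named members, Slbp, Pcna and the H1 median. With library size alone the log2 fold change was -0.05 for Hist1h4k and Slbp, -0.15 for Hist1h4b, -0.12 for Hist1h1e and the H1 median, and -0.10 for Hist1h1c. On RPM it was -0.04 for Hist1h4b, -0.10 for Hist1h1e, -0.09 for Hist1h1c and the H1 median, and -0.06 for Slbp. With limma-voom it was -0.13 for Hist1h4b, -0.0033 for Hist1h1c and the H1 median, and 0.0013 for Pcna. With the acinar covariate it was -0.15 for Hist1h4b, -0.09 for Hist1h1e, and -0.02 for Hist1h1c and the H1 median, and with the Xist covariate -0.06 for Hist1h1c and the H1 median. The H1 median was -0.03 without a filter and -0.02 with DESeq2. With 1 library left out in turn, values ranged from -0.28 to 0.49 for Hist1h4b, -0.04 to 0.31 for Hist1h4k, -0.13 to 0.14 for Hist1h1e, -0.10 to 0.14 for Hist1h1c and for the H1 median, -0.68 to 0.15 for Hist1h1b, -0.12 to 0.01 for Hist1h2bc, -0.19 to 0.11 for Pcna and -0.02 to 0.20 for Slbp. The cause was not tested.

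The replicate numbers were not shown to pair the samples: deviations of same-numbered libraries correlated at 0.0383, 0.21, 0.156 and 0.147, and wild-type replicate 1 correlated best with knockout replicate 3 (0.287). With the replicate block 0 members passed and their median was -0.33. The low depth of most rows limits single-row comparisons, since 25 of 69 members did not reach the test.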
